A study of Homo sapiens with 4 samples.

Results

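The 7 histone genes described here are *HIST1H1C*, *HIST1H2AC*, *HIST1H2BD*, *HIST1H2BK*, *HIST2H2AA4*, *HIST2H4A* and *HIST3H2A*, out of 16811 genes with a value in the RNA-seq table. They were chosen by their symbols. They are also the 7 of 26 genes with a HIST symbol whose mean over the 4 libraries reached 10, the lowest of them being *HIST1H2BD* at 17.4 and the next gene with a HIST symbol being *HIST2H2BC* at 8.76. *H2BFS*, an H2B gene without a HIST symbol, had a mean of 11.04 and is described with the other histone genes. The study sequenced poly(A)-selected RNA from MCF12A cells, a human mammary epithelial line, as single-end reads of 75 bases. The edited group (C1orf132 KO, 2 libraries) carries a CRISPR/Cas9 deletion of the distal p2 promoter of *C1orf132*, the host gene of miR-29b2 and miR-29c, and the wild-type group (2 libraries) was not edited. Both groups grew in the same medium with horse serum, EGF, hydrocortisone, cholera toxin and insulin. Edited colonies were grown from sorted single cells, so the edited libraries may descend from a single clone, and differences between clones cannot be told apart from the edit. The series' design text calls the libraries biological replicates without naming separate cultures, so the p-values measure the spread between these libraries only.

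Histones are the proteins around which DNA is wound, and the core particle holds H2A, H2B, H3 and H4, with H1 as the linker histone outside it. Most histone genes are transcribed during S phase, and their mRNA is cut just after a short stem-loop and gets no poly(A) tail. Some of these genes can also be read past the stem-loop to a later poly(A) signal, which gives polyadenylated mRNA that is best known from cells that have stopped dividing. Poly(A) selection therefore keeps mainly that second form, and the values below say little about the tailless form.

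The ends of the stem-loop transcripts are shown because they are the feature that sets these mRNAs apart from other coding genes. Each line gives the last 24 bases of the annotated transcript (GENCODE version 44), 5′ to 3′, with the 16 bases of the stem-loop in capitals.
*HIST1H1C*: aaaaGGCTCTTTTCAGAGCCacca
*HIST1H2AC*: aaGGCTCTTTTCAGAGCCccccta
*HIST1H2BD*: aaaGGCTCTTTTAAGAGCCacgca
*HIST1H2BK*: aaaGGCTCTTTTAAGAGCCactta
*HIST2H2AA4*: aaaGGCTCTTTTCAGAGCCaccca
*HIST2H4A*: aaaGGCCCTTTTTAGGGCCgacca
*HIST3H2A*: aaaGGCTCTTTTCAGAGCCaccta

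All 7 genes have such a transcript, which ends 4 to 6 bases after the stem-loop. The H2A genes and *HIST1H1C* share the same 16 bases, both H2B genes share another version, and *HIST2H4A* has its own, with a different stem. The letters that the 7 stem-loops share, GGCNCTTTTNAGNGCC with N where they differ, were searched on the transcript strand in the last 30 bases and found in 62 of 254413 annotated transcripts (0.0244%). Longer transcripts are annotated for *HIST1H2AC*, *HIST1H2BD*, *HIST2H4A* and *HIST3H2A*. The longer *HIST1H2BD* transcript, of 789 bases against 486, lacks the stem-loop letters and holds AATAAA, the usual poly(A) signal, from base 765. The longest *HIST1H2AC* and *HIST2H4A* transcripts, of 1668 and 1549 bases, keep the stem-loop inside and hold AATAAA within their last 40 bases. Of all annotated transcripts, 27.1% hold AATAAA there. Both of these long transcripts are annotated as nonsense-mediated decay and not as coding. A coding *HIST1H2AC* transcript of 1462 bases lacks the stem-loop letters and holds AATAAA from base 1313, outside its last 40 bases. *HIST1H1C*, *HIST1H2BK* and *HIST2H2AA4* have a single transcript in this annotation, and it stops after the stem-loop. In RefSeq, however, *HIST1H2BK* spans chr6:27138293-27146858, far more than the 495 bases of this transcript. Longer forms of *HIST1H2BK* may thus be missing here, and its counting intervals below rest on 495 bases. The longer *HIST3H2A* transcripts, of 895 and 1615 bases, keep the stem-loop and hold no AATAAA, and that of 1615 bases is annotated as nonsense-mediated decay. The deposited value is given per gene, so the forms cannot be told apart in it.

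**Figure D1:**
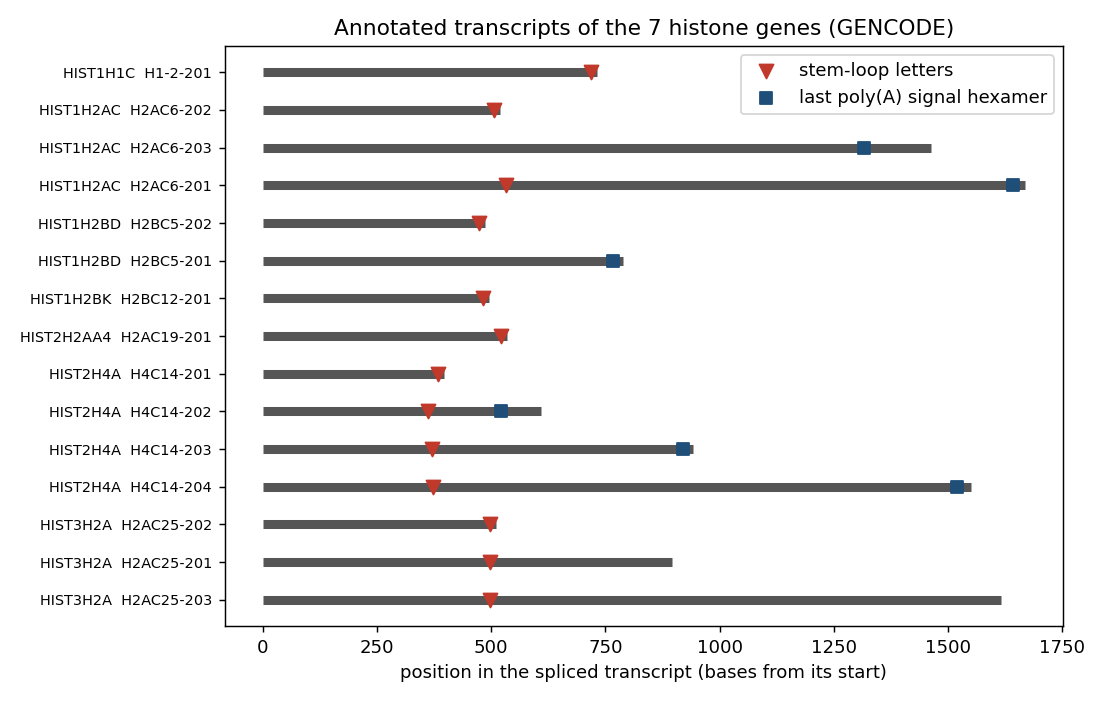
Annotated spliced transcripts of the 7 histone genes, drawn to scale in bases from the transcript start (GENCODE version 44). Triangles mark the stem-loop letters and squares the last AATAAA hexamer, and the 7 shortest transcripts, 1 per gene, end 4 to 6 bases after the stem-loop.

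The genes lie in 3 places of the genome (RefSeq, GRCh38). *HIST1H1C* (chr6:26055740-26056470, minus strand), *HIST1H2AC* (chr6:26124172-26124690, plus strand), *HIST1H2BD* (chr6:26158121-26171349, plus strand) and *HIST1H2BK* (chr6:27138293-27146858, minus strand) belong to the large histone cluster of chromosome 6. *HIST2H4A* (chr1:149832657-149833052) and *HIST2H2AA4* (chr1:149851061-149851594), both on the plus strand, sit close together on chromosome 1. *HIST3H2A* (chr1:228457364-228457873, minus strand) is farther along that chromosome.

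The normalized values are, as judged from the values themselves, scaled for transcript length, so levels can be set side by side between genes. What 1 read is worth was estimated from genes with a single transcript, of which 138 of 975 (14.2%) sat at small whole multiples of a step within 0.01 reads. The step was the median over 28 of these genes, of 300 to 1000 bases, and all read numbers and counting intervals rest on it. For a 1 kb transcript the step was 0.116 and 0.104 (edited replicates 1 and 2), and 0.125 and 0.116 (wild-type replicates 1 and 2). Library totals of the values ran from 1444644 to 1655437. Read numbers below assume the stem-loop transcript, are approximate and cover counting error only, since no molecular identifiers tell copies of a molecule from each other. On the longest annotated transcript the same values would stand for more reads, in edited replicates 1 and 2 about 156 and 213 for *HIST2H4A*, 531 and 667 for *HIST3H2A*, 89 and 205 for *HIST1H2AC* and 30 and 62 for *HIST1H2BD*. The groups were compared by limma on log2(value + 1) over the 9590 genes whose mean reached 10, with a Benjamini-Hochberg adjusted p under 0.05 as the threshold. On this scale the change of low genes is understated. The smallest two-sided p that an exact permutation of 2 against 2 libraries allows is 0.333. *C1orf132* was not analysed here, so the groups rest on the labels. Of 11 mammary epithelial markers, all listed, *EPCAM*, *KRT17*, *TP63* and *CDH1* fell and *KRT8* rose in edited cells (median log2 fold change -2.31), and their values summed to 5679 and 8429 in the edited libraries but to 14270 and 23440 in the others. *CDH1*, the gene of E-cadherin, was at 3.89 and 1.54 in edited cells against 151 and 123 in wild-type cells. Of 3 tested mesenchymal markers, out of 7 on the list, *VIM* rose and *COL1A1* fell. *DCN* was at 15.1 and 105 in edited cells against 7.42 and 1.09 in wild-type cells without passing (3.30, limma adjusted p = 0.0974). None of the 4 immune and 3 endothelial markers was among the 16811 genes with a value. The calls of *TP63*, *EPCAM* and *VIM* were lost without either wild-type library (adjusted p = 0.0694 to 0.175), that of *CDH1* without wild-type replicate 2 (adjusted p = 0.0833), those of *KRT17* and *COL1A1* without each library but edited replicate 2 (adjusted p = 0.0522 to 0.236) and that of *KRT8* without each of the 4 (adjusted p = 0.0534 to 0.224). The part of this shift in markers in the histone values was not tested. In this bulk RNA, fewer cells of a type and less RNA per cell cannot be told apart.

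In poly(A)-selected RNA 3 of the 7 histone genes fell in edited cells and none rose past the threshold. *HIST2H4A*, with a mean value of 13.0 against 70.3, *HIST1H2BD*, with 6.33 against 28.4, and *HIST1H2AC*, with 9.46 against 30.1, fell. *HIST1H1C* and *HIST1H2BK* were lower in both edited libraries without passing it. *HIST2H2AA4* and *HIST3H2A* overlapped between the groups. Of 9590 tested genes, 680 (7.09%) passed the threshold and 403 (4.2%) did so by being lower in edited cells, against 3 of 7 histone genes. *HIST1H2BD* and *HIST1H2AC* had edited means under 10, so they reached the filter only through the wild-type libraries, where they were higher. In the fit without a filter 2 of the 7 passed, against 4.73% of all genes in either direction. The count of 3 became 6 without edited replicate 2, where 1431 of all tested genes passed. It became 0 when either wild-type library was left out, where 47 of all tested genes passed (replicate 1 left out) and 4 did (replicate 2 left out). In 5 of 7 genes both edited libraries lay below both wild-type libraries, as was so for 26.9% of tested genes. The 7 genes had a median log2 fold change of -1.54, against 0.09 over all 9590.

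**Figure D2:**
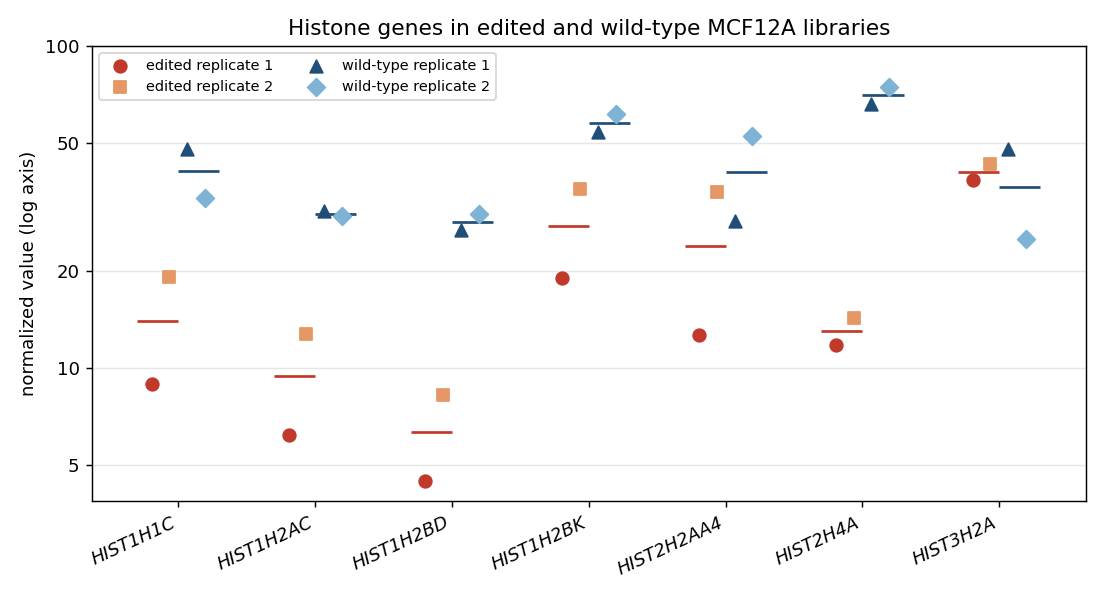
Normalized value (log axis) of the 7 histone genes in each library, with red and blue lines at the means of the 2 edited and the 2 wild-type libraries. Edited points lie below wild-type points for all but *HIST2H2AA4* and *HIST3H2A*, and edited replicate 1 is the lower edited library for all 7 genes.

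*HIST2H4A* encodes histone H4, which pairs with H3 in the core particle. It had values of 11.7 and 14.2 in edited replicates 1 and 2, from about 40 and 54 reads. It had 65.9 and 74.7 in wild-type replicates 1 and 2, from about 209 and 255 reads. The edited libraries lay far below the wild-type libraries and close to each other. The means were 13.0 ± 1.77 (SD, n = 2) and 70.3 ± 6.22 (SD, n = 2), a ratio of 0.185. *HIST2H4A* fell by 2.35 on the log2 scale (standard error 0.19, limma adjusted p = 0.0064). When single libraries were left out, the log2 fold change stayed between -2.48 and -2.22, while the adjusted p rose to 0.0897 without wild-type replicate 2 and to 0.0569 without wild-type replicate 1.

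Reads on the stem-loop transcript of *HIST2H4A* cannot be assigned to it alone. This transcript of 396 bases is identical to that of *HIST2H4B*, with 0 differences, and 322 of 322 windows of 75 bases are shared. The longer transcripts of these genes were not compared. *HIST2H4B* was listed at 1.02 and 0.469 in edited cells against 0 and 5.00 in wild-type cells. With the values of both genes added, the log2 fold change was -2.32 (limma adjusted p = 0.0066).

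The H2B genes *HIST1H2BD* and *HIST1H2BK* encode near-identical forms of the partner of H2A. *HIST1H2BD* had values of 4.44 and 8.21 in edited replicates 1 and 2, from about 19 and 38 reads. In wild-type replicates 1 and 2 it had 26.79 and 29.96, from about 104 and 126 reads. Both edited libraries were below both wild-type libraries by a wide gap, with means of 6.33 ± 2.66 (SD, n = 2) and 28.4 ± 2.24 (SD, n = 2). *HIST1H2BD* fell by 2.05 on the log2 scale (standard error 0.30, limma adjusted p = 0.0262). The call was lost without wild-type replicate 1 (adjusted p = 0.0957) and also without replicate 2 of that group (adjusted p = 0.181). *HIST1H2BK* had values of 19.03 and 35.95 in edited cells and of 53.97 and 61.3 in wild-type cells. The groups did not overlap, but its log2 fold change of -1.10 (standard error 0.31) did not pass the threshold (limma adjusted p = 0.0836). It was -1.55 (adjusted p = 0.00883) without edited replicate 2 and -0.66 (adjusted p = 0.209) without edited replicate 1. In the stem-loop transcript of *HIST1H2BK* 39.0% of windows of 75 bases occur in other genes, and in that of *HIST1H2BD* 2.9% do. The longer *HIST1H2BD* transcript was not compared.

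*HIST1H2AC*, *HIST2H2AA4* and *HIST3H2A* encode H2A. *HIST1H2AC* had values of 6.17 and 12.8 in edited replicates 1 and 2, from about 28 and 64 reads. In the wild-type libraries it had 30.7 and 29.5, from about 127 and 132 reads. The wild-type libraries were almost equal and both stood above the edited ones. *HIST1H2AC* fell by 1.65 on the log2 scale (standard error 0.33), and its limma adjusted p of 0.0478 lay just under the threshold. It was above the threshold with a pseudocount of 0.1 (0.0518), without a filter (0.0588), with cyclic loess normalization (0.0526), without the variance trend (0.0509) and with the replicate block (0.0786). It was also above it without wild-type replicate 1 (0.132) and without the other wild-type library (0.225).

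*HIST2H2AA4* had values of 12.7 and 35.1 in the edited libraries, from about 58 and 181 reads. In the wild-type libraries it had 28.7 and 52.6, from about 122 and 242 reads. Edited replicate 2 exceeded wild-type replicate 1, and the spread within each group was wide. Its log2 fold change was -0.84 (standard error 0.51, limma adjusted p = 0.301). It was -1.54 (adjusted p = 0.0309) without edited replicate 2 and -0.14 (adjusted p = 0.861) without edited replicate 1. All 460 of its windows of 75 bases occur in transcripts of other genes, *HIST2H2AA3* among them, so its value is uncertain.

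*HIST3H2A* had the only positive log2 fold change of the 7. It had 38.2 and 42.8 in edited cells against 47.7 and 25.05 in wild-type cells, so that both edited values lay between the wild-type ones. Its means were 40.5 ± 3.24 (SD, n = 2) and 36.4 ± 16 (SD, n = 2). The log2 fold change was 0.22 (standard error 0.32, limma adjusted p = 0.663), and -0.23 without wild-type replicate 2. None of the 436 windows of 75 bases in its stem-loop transcript occurs in another gene. Its longer transcripts were not compared.

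*HIST1H1C* encodes the linker histone H1.2. It had values of 8.89 and 19.1 in edited replicates 1 and 2, from about 56 and 135 reads. Wild-type replicates 1 and 2 had 47.98 and 33.6, from about 281 and 212 reads. The groups did not overlap, with means of 14.0 ± 7.24 (SD, n = 2) and 40.8 ± 10.2 (SD, n = 2). Its log2 fold change of -1.54 (standard error 0.38) did not pass the threshold (limma adjusted p = 0.0661), and was -2.06 (adjusted p = 0.00524) without edited replicate 2 and -1.03 (adjusted p = 0.107) without edited replicate 1.

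The order of the levels differed between the groups. In wild-type cells *HIST2H4A* was highest with a mean value of 70.3, followed by *HIST1H2BK* at 57.6, and the libraries of these 2 genes and of the next did not overlap. *HIST1H1C*, *HIST2H2AA4*, *HIST3H2A*, *HIST1H2AC* and *HIST1H2BD* followed with means from 40.8 to 28.4, each overlapping its neighbour in this order. In edited cells *HIST3H2A* was highest at 40.5, above both libraries of *HIST1H2BK*, the next. The other neighbours overlapped, from *HIST1H2BK* at 27.5 to *HIST1H2BD* at 6.33. *HIST2H4A* moved from the first to the fifth place. Among all genes of the table, *HIST2H4A* lay at percentile 81.7 of the mean value in wild-type and 49.2 in edited cells.

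The edited libraries differed from each other in these genes. *HIST2H2AA4* was 2.77 times as high in edited replicate 2 as in edited replicate 1, with a counting interval of 2.06 to 3.81 (95%, exact binomial). For *HIST1H1C* the ratio was 2.15 (1.56 to 2.99), for *HIST1H2AC* 2.07 (1.29 to 3.30), for *HIST1H2BK* 1.89 (1.45 to 2.499) and for *HIST1H2BD* 1.85 (1.00 to 3.28). *HIST2H4A* and *HIST3H2A* had ratios of 1.21 (0.786 to 1.86) and 1.12 (0.911 to 1.38), whose intervals include equality. With reads counted on the longest annotated transcripts these became 0.986 to 1.51 and 0.999 to 1.26, and that of *HIST1H2BD* 1.17 to 2.95. These intervals compare 2 libraries and do not include the spread between cultures. On value + 1, 5 of 7 genes were at least 1.5-fold higher in edited replicate 2, against 8.44% of tested genes, and none was lower by as much, against 5.4%. The difference of log2(value + 1) ran from 0.16 for *HIST3H2A* to 1.4 for *HIST2H2AA4*, and 1.79% of tested genes had a larger one than *HIST2H2AA4*. The median difference of all tested genes was -0.03.

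**Figure D3:**
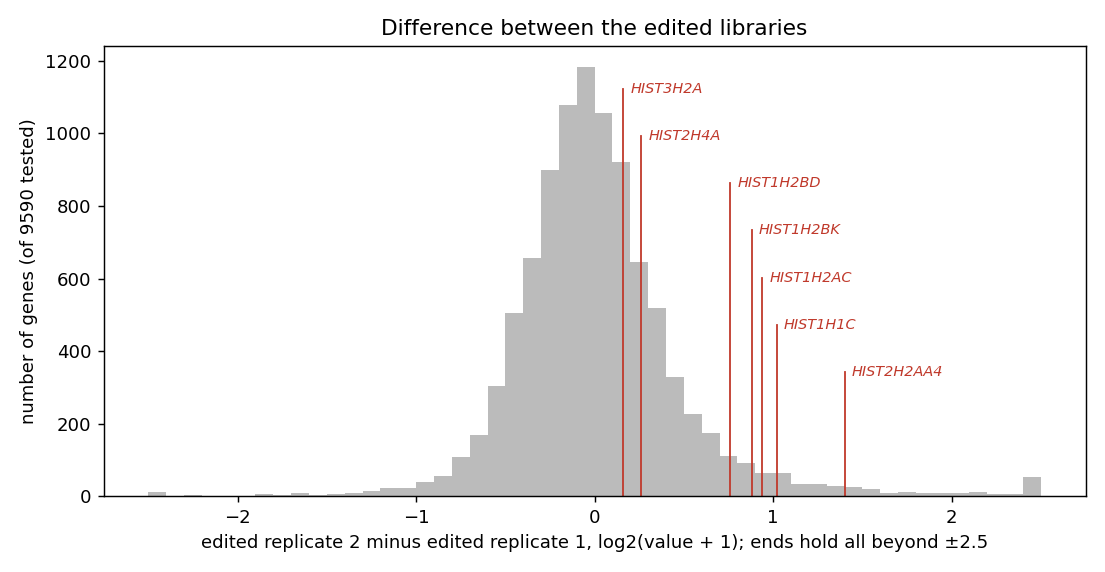
Difference between edited replicate 2 and edited replicate 1 in log2(value + 1), as a histogram of the 9590 tested genes in bins of 0.1 with the 7 histone genes as red lines. All 7 lie right of 0, and 5 lie at 0.76 or above.

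Between the wild-type libraries the pattern was another. *HIST3H2A* was lower in wild-type replicate 2, with a ratio of 0.525 (0.410 to 0.664), and *HIST1H1C* too, at 0.700 (0.583 to 0.840). *HIST2H2AA4* was higher there, at 1.83 (1.47 to 2.31). For *HIST1H2AC*, *HIST1H2BD*, *HIST1H2BK* and *HIST2H4A* the ratios ran from 0.961 to 1.14, with intervals that include equality. On its longest transcript the interval of *HIST2H4A* was 1.03 to 1.25, which does not. On value + 1, 2 of 7 genes differed by at least 1.5-fold in either direction, against 13.0% of tested genes.

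RNAs without a poly(A) tail varied between the libraries as well. The 4 looked at (*RN7SL1*, *RN7SL2*, *RMRP* and *RPPH1*) were chosen after their values were seen. *RN7SL1*, the RNA of the signal recognition particle, was at 197 and 118 (edited replicates 1 and 2) and at 56.2 and 202 (wild-type replicates 1 and 2). The 4 together summed to 492, 306, 138 and 430 in the same order. Their libraries overlapped between the groups, and the highest sum was in edited replicate 1, where the summed value of the 7 histone genes was lowest (101, against 168 in edited replicate 2 and 302 and 307 in the wild-type libraries). The part of carried-over tailless RNA in the histone values was not tested.

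The other 20 histone genes of this kind had means over the 4 libraries with a median of 1.92, the highest being *H2BFS* at 11.04 and *HIST2H2BC* at 8.76. They comprise 19 genes with a HIST symbol and *H2BFS*, and were read from the fit without a filter on low values, over all 16811 genes. None passed the threshold, against 4.73% of all genes, while 12 of 20 had an unadjusted p under 0.05 (limma), as did 29.2% of all genes in that fit. *H2BFS* was at 7.18 and 9.01 in edited cells against 12.98 and 14.98 in wild-type cells, and did not pass in the fit with the filter either (-0.72, adjusted p = 0.113). Of the 20, 17 had a negative log2 fold change, as had 8262 of all 16811 genes in that fit. Both edited libraries lay below both wild-type libraries in 14 of the 20, as in 30.2% of all genes. Their median log2 fold change was -0.75. *HIST1H2BC* had the most negative one, -1.49 (adjusted p = 0.0775), with values of 0.746 and 1.34 in edited cells against 3.25 and 6.60 in wild-type cells. *HIST1H2AJ* had the most positive one, 0.85 (adjusted p = 0.141), with values of 1.82 and 1.85 in edited cells against 0.904 and 0.303 in wild-type cells. In that fit 2 of the 7 histone genes, *HIST2H4A* and *HIST1H2BD*, passed the threshold.

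Replacement histones, most of whose genes are not tied to replication and give ordinary polyadenylated mRNA, had log2 fold changes in both directions. *H2AFX* is known to give both a stem-loop and a polyadenylated mRNA. Of 11 tested, 2 fell and none rose past the threshold, and the median log2 fold change was 0.10. The replacement linker histones fell: *H1F0* was listed at 26.9 and 35.9 in edited cells against 147 and 214 in wild-type cells. It fell by 2.48 on the log2 scale (standard error 0.26, limma adjusted p = 0.0128). *H1FX* was at 82.0 and 84.8 in edited cells against 176 and 246 in wild-type cells, and fell by 1.31 (standard error 0.23, adjusted p = 0.0383). Both calls were lost without wild-type replicate 1 (adjusted p = 0.0569 and 0.0821) and also without replicate 2 of that group (adjusted p = 0.0972 and 0.191). That of *H1FX* was also lost without edited replicate 1 (adjusted p = 0.0695). The 3 linker histone genes with a mean of at least 10, *HIST1H1C* included, did not form a list of their own. All 3 were below the wild-type libraries in both edited libraries, as were 26.9% of tested genes. Past the threshold, 2 of the 3 were lower in edited cells, as were 4.2% of tested genes.

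The replacement core histones showed other values. *H2AFZ*, which encodes H2A.Z, was at 946 and 567 in edited cells against 381 and 365 in wild-type cells (a log2 fold change of 0.97, adjusted p = 0.0920). *H2AFX*, whose product H2AX marks DNA breaks, was at 147 and 108 in edited cells against 64.6 and 73.0 in wild-type cells (0.87, adjusted p = 0.0728). *H2AFY*, which encodes macroH2A1, had a log2 fold change of 0.64 (adjusted p = 0.106), and *H2AFY2*, for macroH2A2, had -0.96 (adjusted p = 0.0669). In each of these 4 the groups did not overlap. Of all 11 tested replacement histone genes, 4 had both edited libraries below both wild-type libraries and 5 had both above. Of all tested genes, 26.9% had both edited libraries below both wild-type libraries and 38.3% had both above. None of *H2AFZ*, *H2AFX*, *H2AFY* and *H2AFY2* passed the threshold. Without edited replicate 2 *H2AFZ* (1.34, adjusted p = 0.0293), *H2AFX* (1.09, adjusted p = 0.0355) and *H2AFY2* (-1.12, adjusted p = 0.0474) passed it. Without edited replicate 1 they had 0.60, 0.65 and -0.81 (adjusted p = 0.313, 0.232 and 0.188). *H3F3A* and *H3F3B*, the genes of H3.3, and *CENPA*, the centromeric H3, had log2 fold changes of 0.15, 0.34 and -0.04 (adjusted p = 0.638, 0.278 and 0.927).

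**Figure D4:**
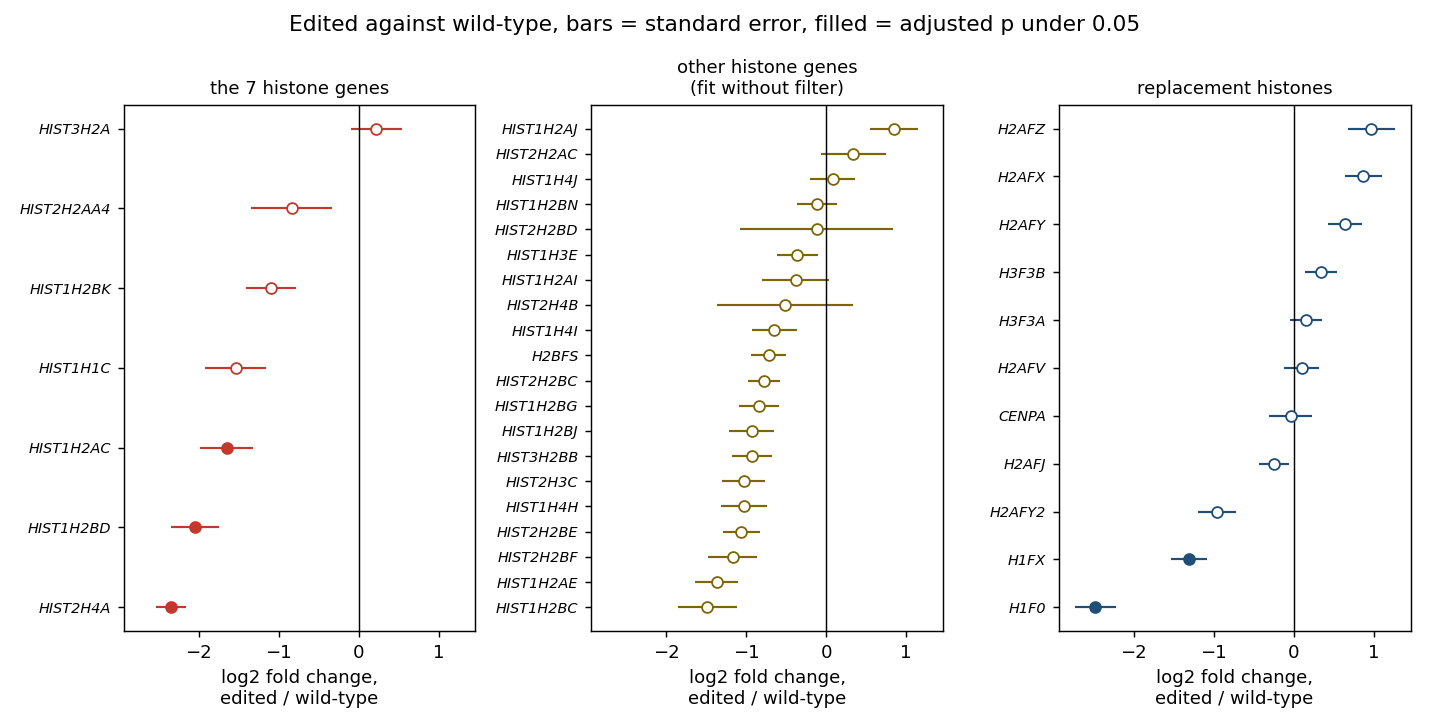
Log2 fold change (edited over wild-type, limma) with its standard error for the 7 histone genes (left), the 20 other histone genes in the fit without a filter (middle) and 11 replacement histone genes (right). Filled points passed an adjusted p of 0.05: 3 of 7, 0 of 20 and 2 of 11, all 5 of them lower in edited cells.

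Genes that make, cut or pack histones did not pass the threshold. Of 17 tested genes for histone mRNA transcription, 3′ processing and decay none did (median log2 fold change 0.22), with 4 of 20 at an unadjusted p under 0.05 in the fit without a filter, where 29.2% of all genes had one. *SLBP*, which binds the stem-loop, was at 88.6 and 80.8 in edited cells against 67.9 and 55.5 in wild-type cells (a log2 fold change of 0.46, limma adjusted p = 0.173). *NPAT*, the activator of histone transcription in S phase, was at 14.5 and 17.4 in edited cells against 12.4 and 18.03 in wild-type cells (0.08, adjusted p = 0.848). None of 15 tested genes of the poly(A) machinery passed (median 0.08), nor of 16 tested histone chaperones and assembly factors (median 0.25), with 3 of 16 and 4 of 18 at an unadjusted p under 0.05 without the filter, against the same 29.2%. Without edited replicate 2, 2 of the processing genes and 1 chaperone passed.

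Cell cycle genes were read beside these values. Of 37 tested S phase genes 1 rose, *UHRF1*, a factor for keeping DNA methylation (log2 fold change 0.93, adjusted p = 0.0469), and the median was 0.23. *UHRF1* was at 23.3 and 22.5 in edited cells against 12.04 and 11.02 in wild-type cells, and its call was lost without each of the 4 libraries (adjusted p = 0.068 to 0.216). Of 53 tested G2 and M phase genes none passed (median 0.08), with 7 of 54 at an unadjusted p under 0.05 without the filter, as had 11 of 43 S phase genes and 29.2% of all genes. Without edited replicate 2, 2 S phase and 2 G2 and M phase genes rose past the threshold. Among 8 tested inhibitors of cell cycle kinases and pocket proteins *CDKN2C* rose, by 1.7 on the log2 scale (adjusted p = 0.0345). It was at 42.8 and 32.6 in edited cells against 8.41 and 13.8 in wild-type cells, and the call was lost without edited replicate 1 (adjusted p = 0.0556), without wild-type replicate 1 (0.0938) and also without replicate 2 of that group (0.0995). *CDKN1A*, for p21, was at 170 and 121 in edited cells against 198 and 320 in wild-type cells (-0.81, adjusted p = 0.145). The median of these 8 genes was -0.55. By flow cytometry the study reported a smaller share of cells in S phase and more cells in G2 and M phase after editing. The part of cell cycle state in the histone values was not tested.

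The tested neighbours of the chromosome 6 genes had mostly negative log2 fold changes. Of 8 genes outside the histone lists with any part within 500 kb of the 4 histone genes, 6 had a negative log2 fold change and 1 fell past the threshold. Their median was -0.80, while that of 363 tested genes of chromosome 6 was 0.23. *PRSS16*, a serine protease gene, fell by 1.31 on the log2 scale (limma adjusted p = 0.0319), with values of 8.30 and 10.3 in edited cells against 25.4 and 23.3 in wild-type cells. That call held without edited replicate 2 and was lost without each of the other libraries (adjusted p = 0.0582 to 0.175). *HFE*, *BTN3A2*, *BTN2A2*, *BTN3A1* and *LRRC16A* had log2 fold changes from -0.89 to -0.70 without passing. *BTN2A1* and *HMGN4* were at 0.12 and 0.22. Each of the 4 histone genes had a more negative value than these 7, and *HIST1H2BK* a less negative one than *PRSS16*. The chromosome 1 pair had 10 such neighbours with a median of 0.12, and *HIST3H2A* had 7 with a median of 0.30, and none of these 17 passed. Copy number was not measured, and its part was not tested.

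**Figure D5:**
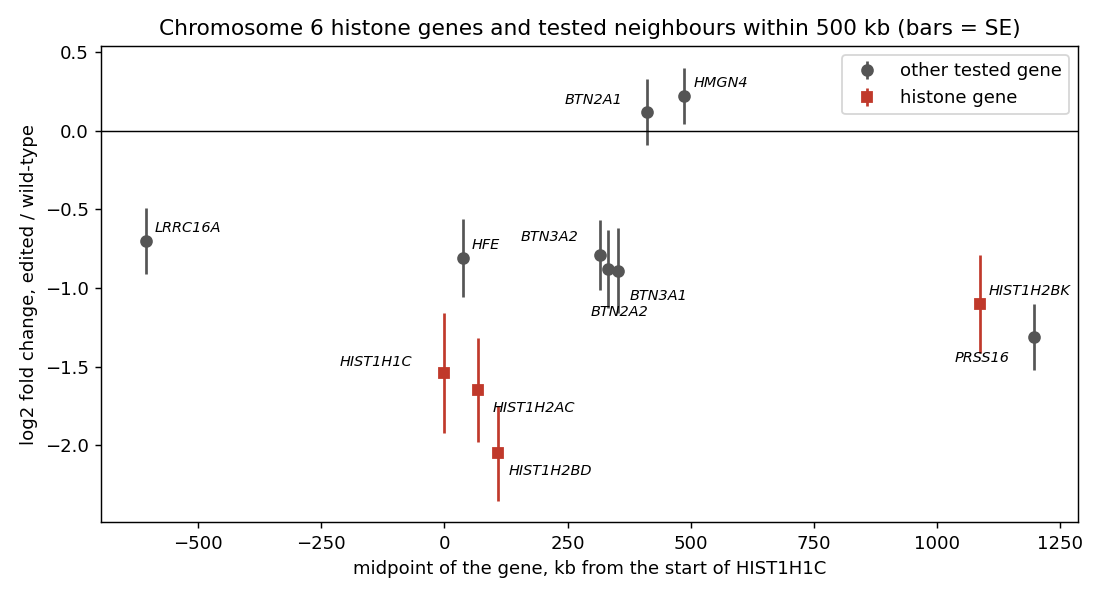
Log2 fold change (edited over wild-type, limma) with its standard error for the 4 chromosome 6 histone genes (squares) and 8 tested neighbours (circles), by distance of the gene's midpoint from the start of *HIST1H1C*. The histone genes lie between -2.05 and -1.10, and 6 of 8 neighbours lie between -1.31 and -0.70.

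The promoters of the 7 genes (RefSeq, GRCh38, 250 bases before to 50 bases after the start) were searched on both strands. TATAAA, the TATA box, was found in 4 of 7 and, anywhere in these bases, in 11.95% of 27305 promoters. In *HIST1H2AC*, *HIST1H2BD*, *HIST1H2BK* and *HIST2H2AA4* it lay 27 to 31 bases before the start. The share of all promoters with it at that distance was not counted. CCAAT was found in all but *HIST2H4A* and in 35.7% of promoters. ATTTGCAT, the octamer known from H2B promoters, was found in *HIST1H2AC* and *HIST1H2BK* and in 1.8% of promoters. TTTGGCGC, of the E2F type, was found in none of the 7 and in 0.66% of promoters. A match is a description of the letters and not of a factor at work. The promoters of *HIST1H2BK*, which held 3 of the 4 motifs, and *HIST2H4A*, which held none and fell the most, are shown 5′ to 3′ with the motifs in capitals. In the first of them a TATAAA overlaps its own reverse complement near the 5′ end.
*HIST1H2BK* (chr6:27146809-27147108, minus strand): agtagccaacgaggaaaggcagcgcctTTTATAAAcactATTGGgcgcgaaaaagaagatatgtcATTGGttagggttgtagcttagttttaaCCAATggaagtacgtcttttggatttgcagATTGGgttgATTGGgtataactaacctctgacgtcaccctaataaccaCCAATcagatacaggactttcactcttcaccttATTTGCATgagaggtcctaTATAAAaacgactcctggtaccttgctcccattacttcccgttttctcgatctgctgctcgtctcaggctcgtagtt
*HIST2H4A* (chr1:149832407-149832706, plus strand): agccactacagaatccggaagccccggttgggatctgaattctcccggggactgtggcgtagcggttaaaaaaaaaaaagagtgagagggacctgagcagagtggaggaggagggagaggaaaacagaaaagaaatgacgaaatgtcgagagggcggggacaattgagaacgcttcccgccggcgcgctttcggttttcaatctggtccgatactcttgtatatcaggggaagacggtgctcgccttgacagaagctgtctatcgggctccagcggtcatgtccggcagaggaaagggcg

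Outside the histones, the genes closest in pattern to the chromosome 6 histone genes were *STAP2*, an adaptor protein gene, *GSN*, which encodes the actin-severing protein gelsolin, and *DTX2*, a ubiquitin ligase gene. Likeness was the Euclidean distance, over the 4 libraries, of log2(value + 1) centred on each gene's mean from the mean of the 4 histone genes, among 4183 genes with a mean of at least 50. The distances were 0.17, 0.17 and 0.19, against 0.07 to 0.51 for the 4 histone genes themselves. *GSN* was at 65.6 and 112 in edited cells against 245 and 269 in wild-type cells. With 4 libraries many genes share such a pattern, and the match was chosen for it, so it carries no test.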

How the data were processed

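Values of 16811 genes in 2 edited and 2 wild-type MCF12A libraries were analysed. The authors deposited 1 normalized expression signal per gene and library, not whole reads. The submitters' processing notes name Salmon, HISAT2 and hg38. Annotation and normalization are not given in the sources used here. The values were compared with limma 3.58.1 (lmFit, eBayes with trend) in R 4.3.3 on log2(value + 1), without a replicate block, over the 9590 genes with a mean of at least 10, after the test was checked on simulated data. The 7 genes and all lists were chosen with earlier results of these data known. The text names the 7 genes, *SLBP*, *NPAT*, *CDKN1A*, the largest changes past the threshold in each list and the 3 genes nearest in pattern; the other replacement and low histone genes and the neighbours were named after their values were seen. Few genes sat at whole reads, so count tests were left out. Transcripts came from GENCODE version 44 (lifted to GRCh37, no coordinates used), and positions and promoters from RefSeq on GRCh38, with all 7 genes matched and 93.4% of tested genes placed. The library kit named in the labels does not mark strand, so antisense reads cannot be told apart. Python 3.11.15, numpy 2.4.6, pandas 2.3.3 and scipy 1.17.1 were used. Alternatives in pseudocount, filter, scaling, block, variance estimate and threshold were run, and fits without single libraries were made. Counting intervals on the longest transcripts were added after seeing the data.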

Additional observations from a re-analysis of the deposited data

How the results depend on the processing

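The test gave 680 genes and 3 of the 7 histone genes at an adjusted p under 0.05 (limma). Over the 4192 genes whose mean reached 50 there were 419, and none of the 7 histone genes could be fitted. With the replicate block it gave 133 genes and 1 histone gene, *HIST2H4A*. With an adjusted p under 0.001 it gave 1 gene and 0 histone genes. When single libraries were left out, there were 4 to 1431 genes and 0 to 6 histone genes. The replicate numbers were not taken as pairs, since the deviations of same-numbered libraries from their group means had a correlation across genes of -0.138. A crossed pairing, chosen after seeing the data, gave 1002 genes and 4 histone genes. The count of histone genes was 2 or 3 with pseudocounts of 0.1 and 5, no filter, equal library totals, quantile and cyclic loess normalization, no variance trend and a robust variance estimate. *HIST3H2A* turned negative without wild-type replicate 2 (-0.23), and reached 0.67 without wild-type replicate 1. *NPAT* did so with equal library totals (-0.03), without edited replicate 2 (-0.04) and without wild-type replicate 1 (-0.17), and was at 0.33 without wild-type replicate 2. The log2 fold changes of the other 6 histone genes were negative in each of these fits. Equal library totals moved the median of all tested genes by -0.12. The cause of these changes was not tested. Counting error limits *HIST1H2BD* most, with about 19 reads in edited replicate 1, and the intervals between libraries leave out the spread between cultures.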
